A study of Mus musculus with 8 samples.

Results

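Mitochondrial fatty acid oxidation and ketone body formation were followed through 31 genes, which were picked by name as enzymes and carriers of these routes. The rule that picks them uses no measured value, though earlier results of these data were known when the list was made. All 31 were found by symbol among the 16640 genes of the authors' deposited table. It sets whole livers of 4 Huwe1_LKO mice, in which the series reports loss of Huwe1 in liver, beside livers of 4 WT mice. Both groups were 1 year old and ate chow without restriction, and the labels name no Cre driver, sex, litter or batch. Huwe1 encodes a HECT-type ubiquitin ligase, and the series title ties its hepatic loss to protection against fatty liver disease. The table gives 1 expression value per gene and group, taken here as depth-normalized reads, so values of single livers were not analysed here. The log2 ratio of Huwe1_LKO over WT is written log2FC below, and the error after ± is the standard error that the deposited p implies. The deposited values summed to 17533080 in Huwe1_LKO and 17347886 in WT. Huwe1 itself stood at 1784 in Huwe1_LKO and 2666 in WT in the authors' deposited table (log2FC -0.58 ± 0.13, adjusted p = 0.000425).

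In hepatocytes, fatty acids are first joined to coenzyme A, and long chains then cross the inner mitochondrial membrane as carnitine esters. In the matrix, beta-oxidation shortens the acyl chain in repeated rounds of oxidation, hydration, a further oxidation and thiolysis, and hands its electrons to the respiratory chain. Liver turns much of the resulting acetyl-CoA into ketone bodies during fasting, and many of the genes are targets of the nuclear receptor PPAR-alpha.

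Promoters are shown for genes of each outcome, since PPAR-alpha binds spaced pairs of the receptor site AGGTCA. The windows run from 250 bases before to 50 bases after the annotated start in RefSeq for GRCm38.p6, and 27 of the 31 genes have an entry in that table. They are Slc25a20 and Hadh, which were lower (chr9:108661886-108662185, plus strand, and chr3:131272052-131272351, minus strand), Acsm1, which was higher (chr7:119617562-119617861, plus strand), and Cpt1a, which was not called (chr19:3323051-3323350, plus strand). Capitals mark AGGTCA, a pair of AGGTCA copies in the same direction spaced by 1 base with up to 2 mismatches, and CCAAT, all on either strand.
Slc25a20: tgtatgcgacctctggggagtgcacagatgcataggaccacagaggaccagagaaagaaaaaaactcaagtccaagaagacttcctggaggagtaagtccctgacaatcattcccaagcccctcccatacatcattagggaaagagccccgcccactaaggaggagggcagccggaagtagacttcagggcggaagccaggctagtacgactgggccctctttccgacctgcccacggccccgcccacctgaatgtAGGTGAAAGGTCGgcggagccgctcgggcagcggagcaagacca
Hadh: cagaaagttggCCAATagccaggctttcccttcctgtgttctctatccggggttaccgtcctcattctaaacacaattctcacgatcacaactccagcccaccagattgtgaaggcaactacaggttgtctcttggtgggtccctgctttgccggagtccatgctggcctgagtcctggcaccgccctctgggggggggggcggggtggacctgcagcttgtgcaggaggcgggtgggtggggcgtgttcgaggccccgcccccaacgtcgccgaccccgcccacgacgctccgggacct
Acsm1: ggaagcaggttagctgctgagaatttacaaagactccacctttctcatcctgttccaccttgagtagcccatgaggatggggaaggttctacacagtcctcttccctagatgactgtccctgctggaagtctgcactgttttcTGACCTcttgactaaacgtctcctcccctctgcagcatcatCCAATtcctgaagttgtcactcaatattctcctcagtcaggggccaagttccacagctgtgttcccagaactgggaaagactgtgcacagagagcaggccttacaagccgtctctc
Cpt1a: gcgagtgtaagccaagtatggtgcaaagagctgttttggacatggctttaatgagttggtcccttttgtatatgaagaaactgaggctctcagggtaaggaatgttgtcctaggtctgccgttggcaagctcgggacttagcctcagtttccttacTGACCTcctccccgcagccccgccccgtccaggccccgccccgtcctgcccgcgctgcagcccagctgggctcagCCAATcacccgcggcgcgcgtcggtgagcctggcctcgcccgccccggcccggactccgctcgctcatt
The Slc25a20 window held the spaced pair with 2 mismatches, its first base 6 bases after the start. Such a pair lay in 3 of 27 genes (Slc25a20, Echs1 and Etfa) and in 3.86% of all 32851 promoter windows. AGGTCA lay in 5 of 27 genes, including Acsm1 at position -107 and Cpt1a at -94, and in 16.3% of all windows. Positions count from the start site of the window, which for Acsm1 and Cpt1a is not the first base of the gene (119617757 and 3322326). CCAAT lay in 13 of 27 genes, including Hadh at position -239, and in 37.4% of all windows. The 27 genes had 29 windows, of which 3 held the pair, 5 AGGTCA and 13 CCAAT. In Echs1 the pair overlapped an AGGTCA, and both were counted.

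Most of the oxidation genes lay slightly below their WT value in Huwe1_LKO, at a share near that of mitochondrial genes in general. At an adjusted p under 0.05 in the authors' deposited table (DESeq2), 8 of the 31 genes were lower in Huwe1_LKO (25.8%), 1 was higher and 22 were not called. Those lower were Crat, Acsl5, Acad10, Eci1, Hadh, Acads, Slc25a20 and Acadsb, and Acsm1 was higher. Of the 31 genes, 24 had a deposited log2FC below 0 (77.4%) and 15 had an unadjusted p under 0.05. Among all genes tested, 5.56% were called lower and 4.41% higher. The 31 genes had group means between 421 and 19073 normalized reads, and among the 4377 genes of that range 12.2% were called lower and 6.01% higher. Among the 754 genes of that range whose deposited annotation places them in mitochondria, 23.3% were called lower and 1.59% higher. A log2FC below 0 was found for 79.4% of these mitochondrial genes, 58.0% of all genes of that range and 46.9% of every gene, and an unadjusted p under 0.05 for 311 of the 754 mitochondrial genes and 3408 of the 16640 genes. Without a fold minimum, the share of oxidation genes called lower was thus near that of mitochondrial genes in general. With a minimum of 1.5-fold, 16.1% of the oxidation genes and 8.49% of the mitochondrial genes were lower. The 754 mitochondrial genes include 27 of the 31 genes, while Acsl1, Acsl3, Acsl5 and Acsm1 lack that annotation. The median deposited log2FC was -0.24 for the 31 genes, -0.18 for those mitochondrial genes, -0.05 for all genes of that level and 0.02 for every gene. With the median of the 2080 most abundant genes set to 0, the 31 genes gave 6 lower and 2 higher, and the mitochondrial genes gave 15.9% lower and 3.32% higher. The same centring gave 625 lower and 1168 higher among all genes, against 925 and 734 as deposited. In bulk tissue, fewer cells of a type and less RNA per cell cannot be told apart.

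**Figure D1:**
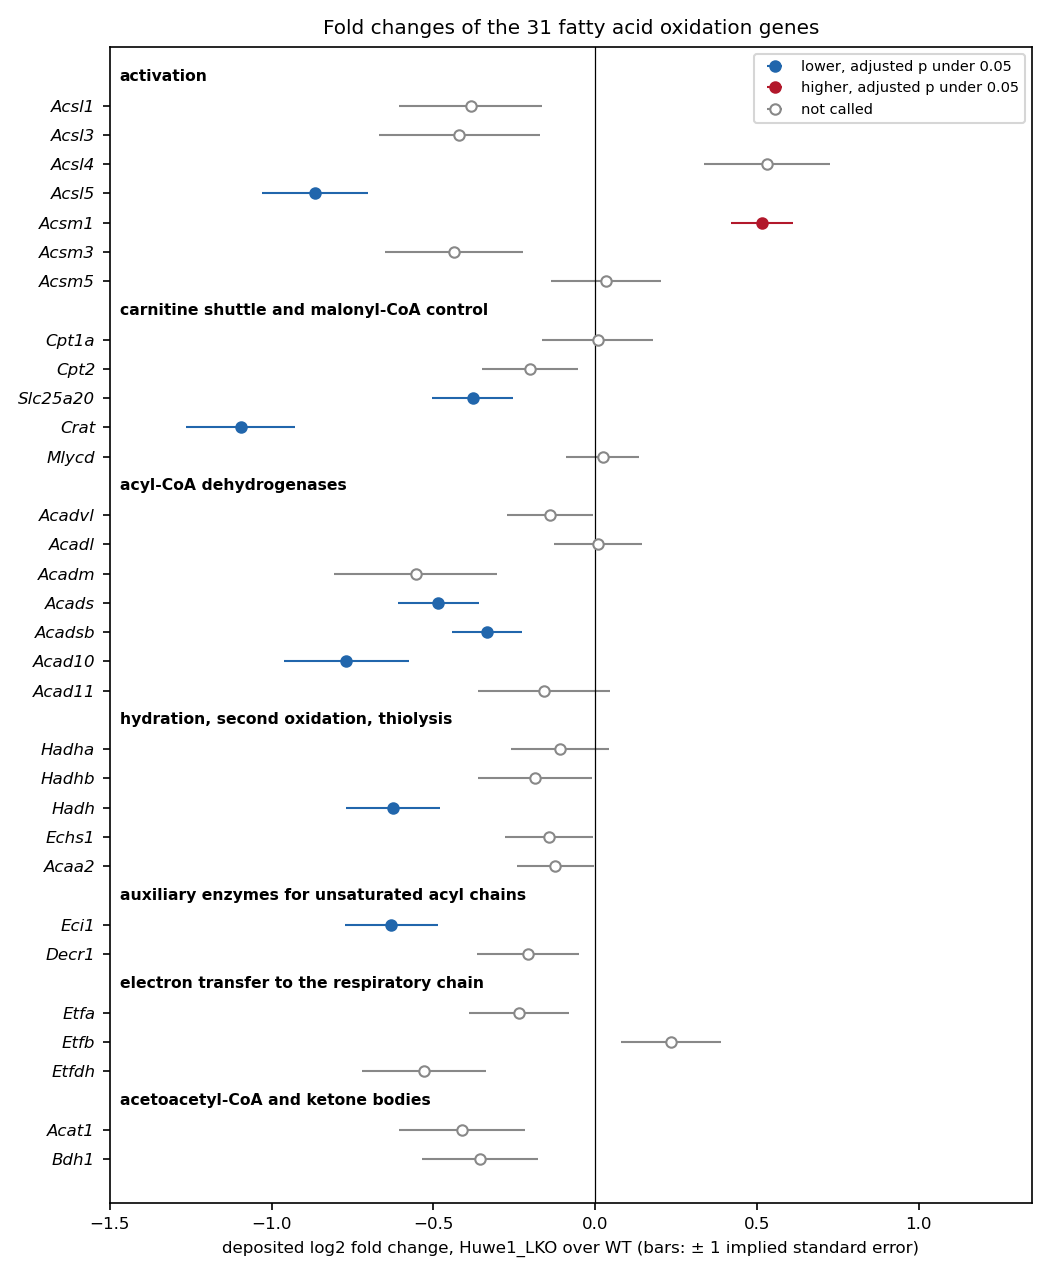
Deposited log2 fold change of Huwe1_LKO over WT (x axis) for the 31 genes in order of pathway step (y axis), with bars of 1 implied standard error to each side. Filled points have an adjusted p under 0.05: 8 lie below 0, between -1.10 for Crat and -0.34 for Acadsb, and Acsm1 lies above 0 at 0.52.

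**Figure D2:**
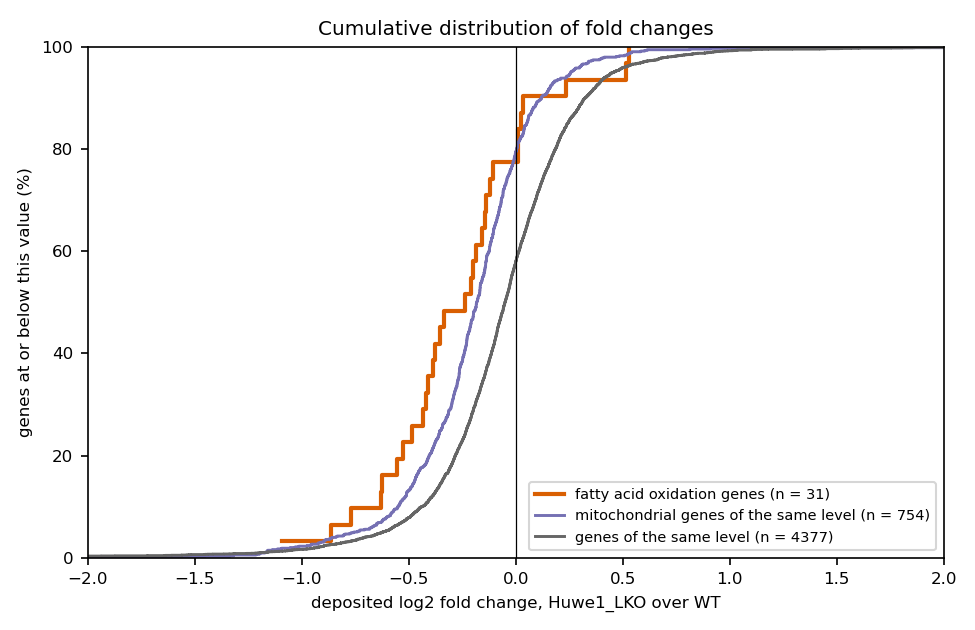
Cumulative share of genes (y axis) by deposited log2 fold change of Huwe1_LKO over WT (x axis) for the 31 oxidation genes, the 754 mitochondrial genes of the same level and the 4377 genes of that level. The x axis is limited to -2 to 2. The median is -0.24 for the oxidation genes, -0.18 for the mitochondrial genes and -0.05 for all genes of that level.

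Among the long-chain acyl-CoA synthetases, Acsl5 was lower and the others were not called. Acsl5, of mitochondria and endoplasmic reticulum, stood at 3583 normalized reads in Huwe1_LKO and 6528 in WT in the authors' deposited table. This was 1.82-fold lower in Huwe1_LKO (log2FC -0.87 ± 0.16, adjusted p = 7.78e-06). Acsl5 (Entrez ID 433256) lies on chromosome 19, 55251861 to 55296628 in GRCm38. Acsl1, the most abundant of the family, had a deposited value of 16541 in Huwe1_LKO and 21604 in WT and was not called (log2FC -0.39 ± 0.22, adjusted p = 0.326). Acsl4, which prefers arachidonic acid, had a deposited value of 1319.5 in Huwe1_LKO and 914 in WT. It lay just outside the threshold (log2FC 0.53 ± 0.20, adjusted p = 0.0608) and was called higher when p-values were adjusted over genes with a mean value of 10 or more (adjusted p = 0.0463). Acsl3, of the endoplasmic reticulum and lipid droplets, was deposited at 458 in Huwe1_LKO and 612 in WT and was not called (adjusted p = 0.355). The gene length in the table is shorter than the span of these genes on the chromosome (3167 bases for Acsl5). Divided by the gene length in the table, the 4 Acsl genes summed to 5733 normalized reads per kb in Huwe1_LKO and 7913 in WT. Of that level, Acsl5 made up 19.7% in Huwe1_LKO and 26.0% in WT, and Acsl4 4.61% in Huwe1_LKO and 2.31% in WT.

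Among the medium-chain synthetases, Acsm1 was the only gene of the 31 called higher. Acsm1, which activates medium-chain acids in the matrix, had 7889 normalized reads in Huwe1_LKO and 5520.1 in WT in the authors' deposited table. The difference was 1.43-fold (log2FC 0.52 ± 0.095, adjusted p = 4.69e-06). Acsm1 (Entrez ID 117147) lies on chromosome 7, 119617757 to 119662515 in GRCm38. Acsm5, a relative, had a deposited value of 2357 in Huwe1_LKO and 2302 in WT (log2FC 0.03 ± 0.17). Acsm3, another relative, was deposited at 1142 in Huwe1_LKO and 1545 in WT and was not called (adjusted p = 0.218). Of the 50-base words of Acsm3 transcripts, 40.4% also lie in Eri2, which overlaps it on the opposite strand. Whether counting used strand is not stated, so the Acsm3 value is uncertain.

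At the carnitine shuttle, the carrier was lower and the acyltransferases of long chains were not called. Cpt1a, the outer membrane acyltransferase that gates entry, had 6323 normalized reads in Huwe1_LKO and 6287 in WT in the authors' deposited table. Its log2FC was 0.01, with an approximate 95% interval of -0.33 to 0.34. Slc25a20, the carrier that exchanges acylcarnitine for carnitine, was deposited at 1573 in Huwe1_LKO and 2045 in WT. It was 1.30-fold lower in Huwe1_LKO (log2FC -0.38 ± 0.13, DESeq2 adjusted p = 0.0309), on chromosome 9, 108662136 to 108684642 in GRCm38. This call was lost with the median of the 2080 most abundant genes set to 0 (adjusted p = 0.118) and with the trend of length and level removed (adjusted p = 0.236). Cpt2, which reforms acyl-CoA inside, had a deposited value of 2514 in Huwe1_LKO and 2889 in WT (log2FC -0.20 ± 0.15, adjusted p = 0.517).

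Crat, which moves short acyl groups between carnitine and coenzyme A, had the largest deposited log2FC in size of the 31 genes. It stood at 587 normalized reads in Huwe1_LKO and 1254 in WT in the authors' deposited table. This was 2.14-fold lower in Huwe1_LKO (log2FC -1.10 ± 0.17, adjusted p = 1.25e-08). Crat (Entrez ID 12908) lies on chromosome 2, 30400476 to 30416017 in GRCm38. Mlycd, the decarboxylase that removes the CPT1 inhibitor malonyl-CoA, was deposited at 1688 in Huwe1_LKO and 1661 in WT, with a log2FC of 0.02 and an approximate 95% interval of -0.20 to 0.25.

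Of the 7 acyl-CoA dehydrogenases, which carry out the first oxidation of each round, 3 were lower and 4 were not called. Acads, which acts on short chains, had 2107 normalized reads in Huwe1_LKO and 2949 in WT in the authors' deposited table. It was at 71.4% of the WT value (log2FC -0.49 ± 0.12, adjusted p = 0.00249), on chromosome 5, 115110299 to 115119346 in GRCm38. Acadsb, which acts on short branched chains in isoleucine breakdown, had a deposited value of 1810.2 in Huwe1_LKO and 2284 in WT (log2FC -0.34 ± 0.11, adjusted p = 0.0248), on chromosome 7, 131410601 to 131446211 in GRCm38. The Acadsb call was lost with the median of the 2080 most abundant genes set to 0 (adjusted p = 0.122) and with the trend of length and level removed (adjusted p = 0.149). Acad10, a less studied relative, was deposited at 312 in Huwe1_LKO and 531 in WT (log2FC -0.77 ± 0.19, adjusted p = 0.00187), on chromosome 5, 121621026 to 121660603 in GRCm38. Of the Acad10 words 20.2% also lie in the neighbouring Acad12, so reads of this pair may have been split.

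The dehydrogenases of medium and longer chains were not called. Acadvl, which acts on very long chains at the inner membrane, had 5306 normalized reads in Huwe1_LKO and 5849 in WT in the authors' deposited table (log2FC -0.14 ± 0.13, adjusted p = 0.666). Of the Acadvl words 23.5% also lie in Dvl2, which overlaps it on the opposite strand, so the Acadvl value is uncertain. Acadl, the long-chain enzyme, had a deposited value of 3199.7 in Huwe1_LKO and 3182 in WT. Acadm, the medium-chain enzyme, was deposited at 4517 in Huwe1_LKO and 6638 in WT, with a larger difference than Acads and a larger error (log2FC -0.56 ± 0.25, adjusted p = 0.162). Acad11, a relative that acts on longer chains, was deposited at 4765 in Huwe1_LKO and 5316 in WT. Per kb, the 7 genes summed to 9409.7 normalized reads in Huwe1_LKO and 11489 in WT in the deposited values. Acadm made up 23.3% of that level in Huwe1_LKO and 28.0% in WT.

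In the later steps of the round, Hadh was lower and the other 4 genes were not called. Hadh, which carries out the oxidation after hydration on shorter chains, had 4299 normalized reads in Huwe1_LKO and 6624 in WT in the authors' deposited table. It was 1.54-fold lower in Huwe1_LKO (log2FC -0.62 ± 0.15, adjusted p = 0.000572), on chromosome 3, 131233419 to 131272101 in GRCm38. Hadha and Hadhb are the subunits of the trifunctional protein, which performs these steps on long chains at the inner membrane. Hadha had a deposited value of 6365 in Huwe1_LKO and 6859 in WT (log2FC -0.11 ± 0.15, adjusted p = 0.818). Hadhb was deposited at 2474 in Huwe1_LKO and 2813 in WT, and 57.5% of its words also lie in other genes, mostly in the pseudogene Gm13910. Echs1, the hydratase of shorter chains, had a deposited value of 3408 in Huwe1_LKO and 3762 in WT. The thiolase Acaa2 was deposited at 11095.5 in Huwe1_LKO and 12081 in WT (log2FC -0.12 ± 0.12, adjusted p = 0.676). Per kb, Acaa2 had the highest deposited level of the 31 genes, with 7397 in Huwe1_LKO and 8054 in WT.

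Some genes were also grouped by chain length and place in mitochondria, after the values were seen. The 4 inner membrane enzymes of long chains (Cpt2, Acadvl, Hadha and Hadhb) had deposited log2FC values between -0.20 and -0.11, and 0 were called. The 5 soluble enzymes of shorter chains (Acadm, Acads, Hadh, Echs1 and Acaa2) had deposited log2FC values between -0.62 and -0.12, and 2 were called lower. The ranges overlap, and 23.3% of the mitochondrial genes of that level were called lower. Left out of both groups were the inner membrane carrier Slc25a20 (log2FC -0.38, called lower) and the long-chain enzyme Acadl (0.01). The difference between these groups was not tested, since it needs values of single livers.

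Eci1, an isomerase that shifts double bonds so that unsaturated chains can be oxidized, had 1758 normalized reads in Huwe1_LKO and 2719.7 in WT in the authors' deposited table. It was 1.55-fold lower in Huwe1_LKO (log2FC -0.63 ± 0.14, adjusted p = 0.000468), on chromosome 17, 24426683 to 24439316 in GRCm38. Decr1, the reductase that acts beside it on polyunsaturated chains, had a deposited value of 2785 in Huwe1_LKO and 3218 in WT and was not called (adjusted p = 0.533).

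Of the 3 genes of electron transfer 0 were called by DESeq2, and 1 had an unadjusted p under 0.05. That gene was Etfdh, the membrane oxidoreductase that passes electrons to ubiquinone, with 2464 normalized reads in Huwe1_LKO and 3555 in WT in the authors' deposited table. It lay nearest to the threshold of the genes not called (log2FC -0.53 ± 0.19, adjusted p = 0.0541) and was called lower when p-values were adjusted over genes with a mean value of 10 or more (adjusted p = 0.0413). Etfa and Etfb form the flavoprotein that takes electrons from the dehydrogenases. Etfa had a deposited value of 3709 in Huwe1_LKO and 4369 in WT (log2FC -0.24 ± 0.15). Etfb was deposited at 5433 in Huwe1_LKO and 4621 in WT (log2FC 0.23 ± 0.16). Of the Etfb words 57.7% also lie in Gm45233, which overlaps it on the same strand, so its value is uncertain.

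**Figure D3:**
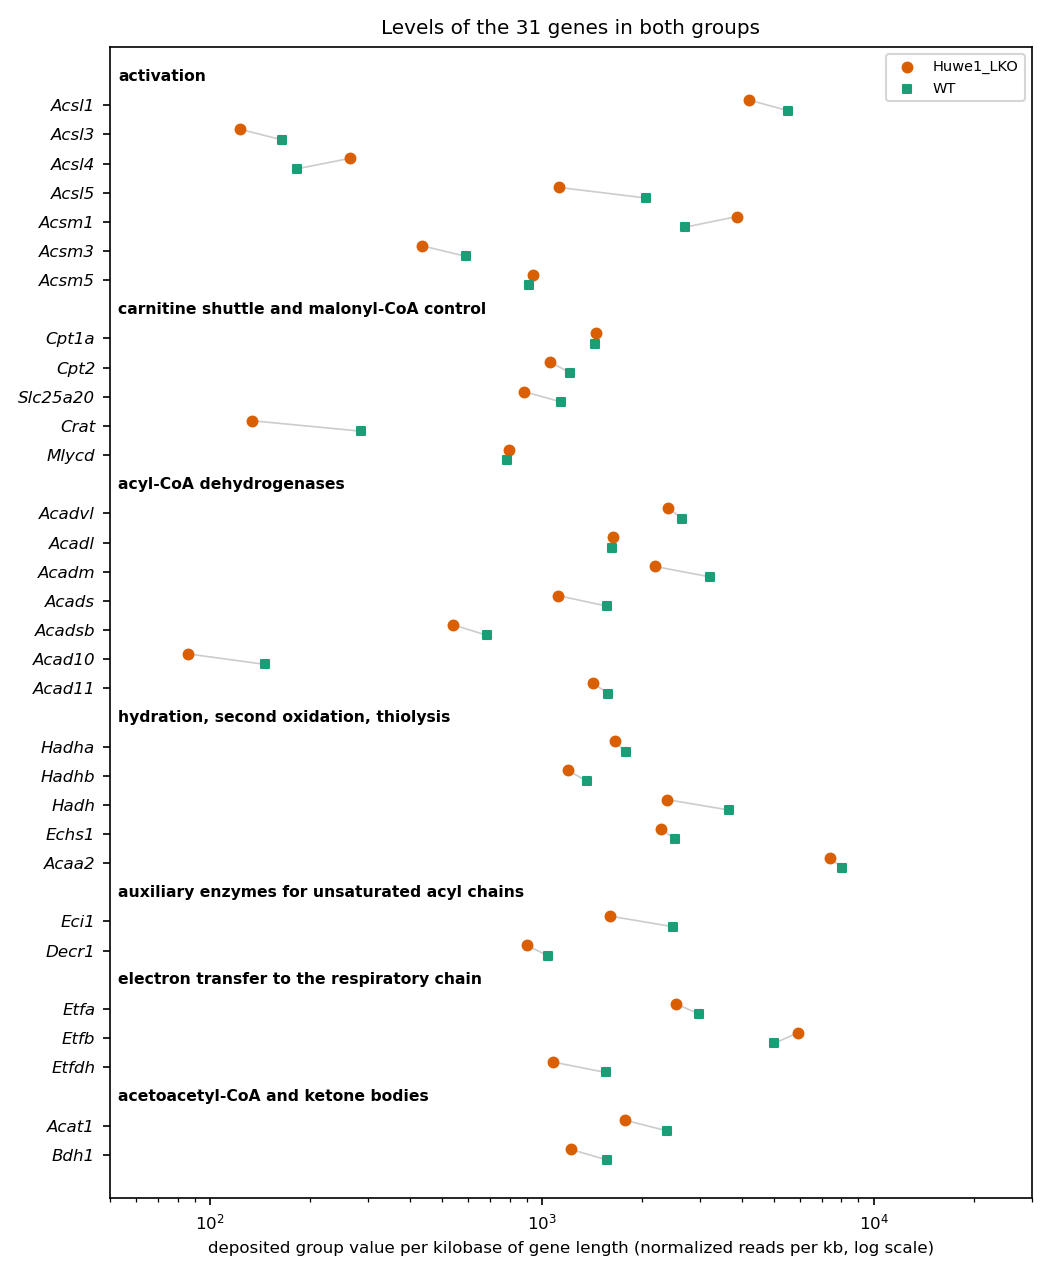
Deposited group values per kb of gene length (x axis, log scale) for the 31 genes by pathway step (y axis), as circles for Huwe1_LKO and squares for WT. Acaa2 is the most abundant gene in both groups (7397 in Huwe1_LKO and 8054 in WT) and Acad10 the least (86.0 in Huwe1_LKO and 147 in WT).

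Of the genes of ketone body formation among the 31, Acat1 and Bdh1 were not called. Acat1, which joins acetyl-CoA to acetoacetyl-CoA, had 6032 normalized reads in Huwe1_LKO and 8018 in WT in the authors' deposited table (log2FC -0.41 ± 0.19, adjusted p = 0.195). Bdh1, which reduces acetoacetate to beta-hydroxybutyrate, had a deposited value of 3817 in Huwe1_LKO and 4887 in WT (log2FC -0.36 ± 0.18, adjusted p = 0.233). Both had an unadjusted p under 0.05. Aacs, a cytosolic synthetase that returns acetoacetate to lipid synthesis, had a deposited value of 2269.8 in Huwe1_LKO and 4374 in WT (adjusted p = 0.0370). Of 9 further genes of ketone body synthesis, export and use, 2 were lower, Aacs among them, and 0 were higher.

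Around the 31 genes, 119 other genes of the pathway and its control were listed, of which 37 were lower (31.1%) and 7 higher (5.88%) in the authors' deposited table. With the median of the 2080 most abundant genes set to 0 these counts were 28 and 12. Beside the deposited counts here and below, 5.56% of all genes were called lower and 4.41% higher. Among the mitochondrial genes of the level of the 31 genes, 23.3% were called lower and 1.59% higher. All 4 genes listed under malonyl-CoA supply were lower, with a median deposited log2FC of -0.83, though Mcat among them uses malonyl-CoA. Acacb, whose malonyl-CoA inhibits CPT1 at mitochondria, fell to 391 in Huwe1_LKO against 2563 in WT in the deposited values (log2FC -2.71 ± 0.26, adjusted p = 6.86e-23). Acaca, its cytosolic relative, had a deposited log2FC of -0.98, and Mcat and Acsf3, which serve fatty acid synthesis inside mitochondria, had -0.69 and -0.68.

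Of 11 other genes listed as beta-oxidation enzymes 6 were lower and 0 higher in the authors' deposited table. Their median log2FC was -0.45, and 3 were lower once the trend of length and level was removed. Not all of these serve beta-oxidation itself: Mecr (deposited log2FC -0.81) acts in mitochondrial fatty acid synthesis, Hibch (-0.61) and Hibadh (-0.45) in valine breakdown, and Echdc1 (-0.84) is a cytosolic decarboxylase. Echdc3 had a deposited log2FC of -0.54 and Hsd17b10 of -0.45. Of 5 other acyl-CoA dehydrogenases 4 were lower in the deposited table. These were Acad12 (log2FC -0.84), Acad9 (-0.67), also an assembly factor of complex I, Gcdh of lysine breakdown (-0.59) and Acad8 of valine breakdown (-0.41). In the propionyl-CoA route, the carboxylase subunit Pcca (deposited log2FC -0.62) and Mmab of cobalamin handling (-0.65) were lower among 7 genes.

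Of 12 genes of fatty acid entry and other synthetases 6 were lower and 2 higher in the authors' deposited table. Cd36, a fatty acid translocase, fell to 362 normalized reads in Huwe1_LKO against 1714 in WT in the deposited values. Acss3, a propionyl-CoA synthetase, had a deposited log2FC of -2.01, the transporter Slc27a4 of -0.80 and Dbi, the acyl-CoA binding protein, of -0.57. Slc27a1, another transporter, was higher (deposited log2FC 0.74), as was Acsm2, at 29.3 in Huwe1_LKO and 7.37 in WT in the deposited table. Carnitine supply and other carnitine acyltransferases gave 0 calls of 9 genes by DESeq2, and 1 of these, Slc25a45, had an unadjusted p under 0.05. Of 7 genes of flavin supply and flavoprotein partners, Etfrf1 was lower (deposited log2FC -0.52) and Etfbkmt, the methyltransferase that modifies Etfb, was higher. Etfbkmt stood at 889 in Huwe1_LKO and 473 in WT in the authors' deposited table (adjusted p = 1.62e-06).

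The receptor Ppara was not called, while 8 of 18 PPAR-alpha targets of fasting were lower and 1 was higher. Ppara had 4639 normalized reads in Huwe1_LKO and 5555 in WT in the authors' deposited table (adjusted p = 0.389), and the coactivator Ppargc1a had 133 in Huwe1_LKO and 117 in WT (adjusted p = 0.847). The target list holds 4 of the 31 genes (Cpt1a, Cpt2, Slc25a20 and Acadm). Vnn1 (deposited log2FC -1.99), the peroxisomal enzyme Ehhadh (-1.03), the pyruvate dehydrogenase kinase Pdk4 (-1.48) and the droplet protein Plin2 (-0.84) were among those lower. Cyp4a32, a fatty acid hydroxylase in a family of close copies that counting may not separate, was higher (deposited log2FC 0.83). Fgf21, a hepatokine of fasting, was deposited at 25.1 in Huwe1_LKO and 58.0 in WT and was not called (adjusted p = 0.0903). Angptl4, a secreted lipase inhibitor of the same list, lay on the other side at 2213 in Huwe1_LKO and 1291 in WT in the deposited table and was not called either (log2FC 0.78 ± 0.30, adjusted p = 0.0842). Of 24 regulators 3 were higher, among them the Mediator subunit Med1 (deposited log2FC 0.49) and the hepatocyte factor Hnf4a (0.37), and 1 was lower, the desuccinylase Sirt5 (-0.49). With the median of the 2080 most abundant genes set to 0, 7 regulators were higher and 0 lower.

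**Figure D4:**
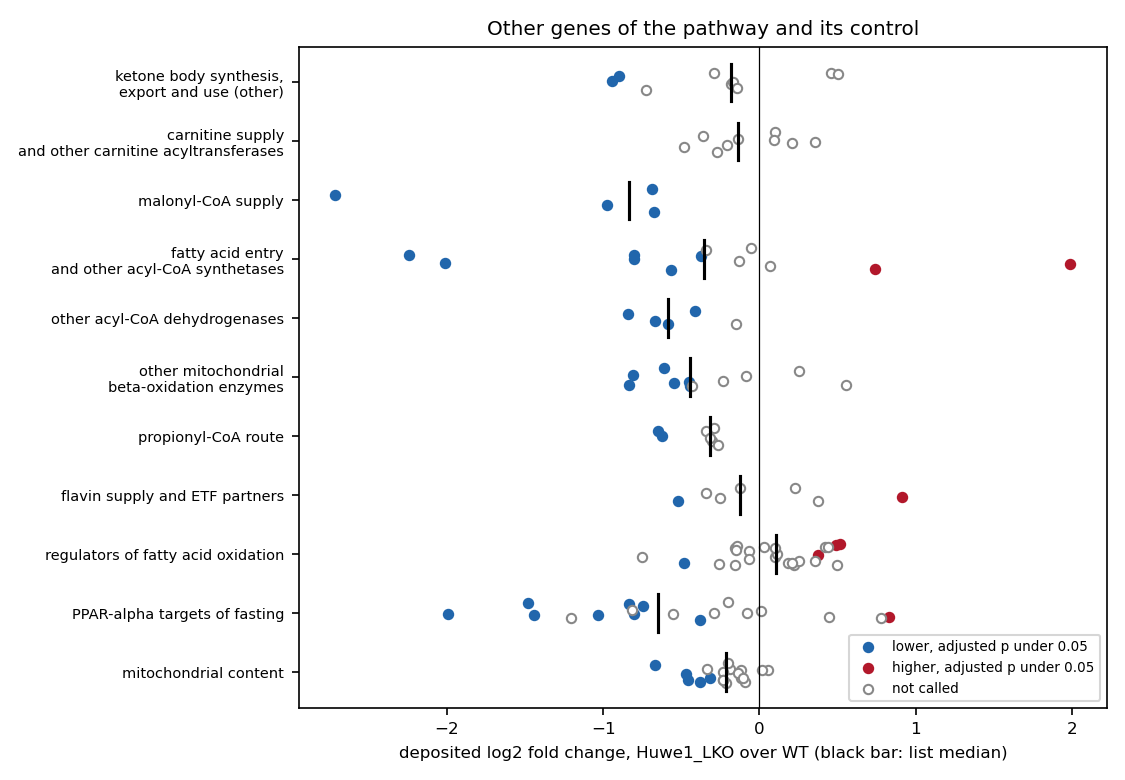
Deposited log2 fold change of Huwe1_LKO over WT (x axis) for the genes of 11 other pathway lists (y axis), with filled points at an adjusted p under 0.05 and a black bar at each list's median. The genes listed under malonyl-CoA supply, Mcat among them, all lie below 0 (median -0.83), and the regulators lie on both sides of 0 (median 0.11).

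Of 19 genes of mitochondrial content 5 were lower and 0 higher in the authors' deposited table. Their median log2FC was -0.22, against -0.24 for the oxidation genes. With the trend of length and level removed, or with the median of the 2080 most abundant genes set to 0, 2 were lower. Citrate synthase (Cs) had a deposited log2FC of -0.67, the prohibitins Phb and Phb2 of -0.47 and -0.32, Mfn2 of membrane fusion of -0.45 and Immt of the cristae of -0.38. The part of mitochondrial content in the lower oxidation genes was not tested.

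Hepatocyte markers were abundant in both groups, and Hnf4a and Serpina1c (deposited log2FC 0.37) were the 2 of 6 called, both higher in Huwe1_LKO. Of the 6, 5 had a deposited log2FC above 0, and the sum in Huwe1_LKO was 132% of WT. Most of that sum was Alb, with 1629594 in Huwe1_LKO and 1192099 in WT (log2FC 0.45 ± 0.17, DESeq2 adjusted p = 0.0631). Tat lay below 0, with 18547 in Huwe1_LKO and 25942 in WT (log2FC -0.48 ± 0.26, DESeq2 adjusted p = 0.286). Among zone markers, Oat (deposited log2FC -0.46) and Slc1a2 (0.49) were called of 9 pericentral genes and Cyp2f2 (0.39) of 7 periportal genes. Of 4 neutrophil markers, S100a9 and Retnlg were higher, and the 4 summed to 221 normalized reads in Huwe1_LKO and 99.0 in WT in the authors' deposited table. DESeq2 called 0 of 32 markers of macrophages, endothelial, stellate, bile duct and lymphoid cells and adipocytes, and 2 of these (Spp1 and Cfd) had an unadjusted p under 0.05. Macrophage markers summed to 2298 in Huwe1_LKO and 1919 in WT, and bile duct markers to 1620.1 in Huwe1_LKO and 900.4 in WT, in the deposited values. Spp1 made up most of the bile duct sum, with 1410.3 in Huwe1_LKO and 722 in WT, while Krt7 had 9.40 in Huwe1_LKO and 13.9 in WT in the deposited table. Endothelial, stellate and lymphoid sums in Huwe1_LKO were 105%, 112% and 109% of WT. The 3 adipocyte markers summed to 58.4 in Huwe1_LKO and 136 in WT in the deposited values, nearly all of it Cfd (57.8 in Huwe1_LKO and 135 in WT), while Adipoq and Lep were near 0 in both groups. The part of these cell types in the result was not tested.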

How the data were processed

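Liver RNA of 4 Huwe1_LKO and 4 WT mice was sequenced, with groups taken from the sample titles. The submitters' processing notes name mm10 and DESeq2, while the aligner and counting step were not given in the sources used here. Per the file headers, the deposited table holds a depth-normalized signal (1 value for each gene in each group), the log2 fold change, a p-value, an adjusted p-value and a gene length. The deposited log2 column matched the log2 ratio of the group values to within 4.71e-08, and Benjamini-Hochberg adjustment of the deposited p-values gave the adjusted ones to within 1.74e-06. For 707 genes with about 1 read in all, the deposited log2 values were only 0.11 to 0.12 in size. No group value was 0 (the lowest was 0.115), although 1 read cannot fall in both groups. The group values may thus follow fold changes pulled toward 0 rather than plain means of reads. Fold changes, group differences and implied errors of low or variable genes may be understated. Depth per liver is unknown. A count model over livers could not be fitted to such a table, so the authors' calls were used.

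Implied standard errors are the size of log2FC over the normal score of the two-sided p, which assumes a Wald test, and the approximate 95% intervals rest on them. Nothing says whether livers share a litter, so p-values measure the spread between these livers. The 31 genes and all lists were chosen with earlier results of these data known. All 31 genes are named, as are called genes of each other list (at most the 6 with the smallest p), called markers, and Ppara, Ppargc1a, Acacb, Fgf21 and Pdk4, except that some genes of these lists are not reported here by name. Slc25a45, Angptl4, Alb, Tat, Spp1, Krt7, Cfd, Adipoq and Lep were named after their values were seen. Alternatives were other thresholds, filters on low values, centring, removal of the median of genes of like length (5 classes) and level (10 classes), a minimum of 1.5-fold and a pseudocount of 1. RefSeq (GRCm38.p6) gave positions for 16608 of 16640 gene IDs, and shared 50-base words were counted in GENCODE M21 transcripts. The calculations were tested on simulated data. Versions were Python 3.11.15, scipy 1.17.1, numpy 2.4.6, pandas 2.3.3 and matplotlib 3.10.9.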

Additional observations from a re-analysis of the deposited data

How the results depend on the processing

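No paired analysis was possible because the table holds 1 value per gene and group, and no liver could be left out for the same reason. No called gene among the 31 and the called genes of the other lists changed sign under the alternatives run. Cpt1a and Acadl, which were not called and had a log2FC of 0.01 as deposited, moved to just below 0 when centred on genes with a mean value of 10 or more. Against 8 lower and 1 higher as deposited, 5 of the 31 genes were lower and 0 higher when a change of at least 1.5-fold was also required. These 5 were 16.1% of the 31 genes. With the same minimum, 8.49% of the mitochondrial genes of that level, 5.23% of all genes of that level and 3.03% of every gene were lower. There were 2 higher, with Acsl4 added, at an adjusted p under 0.1, after adjustment over genes with a mean value of 10 or more or of 100 or more, and with the median of the 2080 most abundant genes set to 0. The count lower was between 6 and 9 under the other alternatives. It was 7, with 1 higher, without the 7 genes that share over 10% of their 50-base words with another gene (Acsm3, Acadvl, Acad10, Acad11, Hadhb, Etfb and Bdh1), an alternative chosen after seeing the data. The median log2FC of the 31 genes stayed between -0.29 and -0.15. Among the 119 other genes, 7 were higher as deposited, 3 at an adjusted p under 0.01, 4 with the 1.5-fold minimum and 12 with the median of the 2080 most abundant genes set to 0. That centring, a shift of -0.08 on the log2 scale, ended 9 calls among them (Aacs, Acad8, Acsf2, Hsd17b10, Immt, Mfn2, Mmab, Phb2 and Sirt5). Removal of the trend ended 12, which include those and Echdc3 and Hibadh. The cause of these changes was not tested.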
